A study of Mus musculus with 6 samples.

Results

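This report describes the BET bromodomain genes Brd2 and Brd3 and the high mobility group genes Hmga1, Hmga2, Hmgb1, Hmgb2 and Hmgb3 in mouse pancreatic tumour cells with and without Msi1. The members are the 7 genes of this list of symbols. A probe set, the group of short probes that reports 1 transcript, was taken when the array's annotation gave it to 1 of them and to no other gene. By this rule 5 of the 7 genes were measured, among 18193 genes in all, through 14 of 45037 probe sets. Brd2 had 2 of these probe sets, Brd3 4, Hmga2 4, Hmgb2 3 and Hmgb3 1. All 5 probe sets that carry Hmgb1 also carry a predicted gene, Gm21596, and 1 of them a further gene, so their values are given below but are not counted as Hmgb1. Hmga1 was not analysed here. Each gene is represented by its brightest probe set, and values are intensities on the linear scale deposited by the authors.

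BET proteins bind acetylated lysines on histone tails through their bromodomains and recruit the kinase complex P-TEFb, which releases paused RNA polymerase. The HMGA proteins are small architectural factors that hold the minor groove of AT-rich DNA with their AT hooks. Hmga2 is mainly embryonic, is repressed by let-7 microRNAs and is expressed again in many carcinomas, including those of the pancreas. HMGB proteins bend DNA with their HMG boxes. Hmgb2 is abundant in dividing cells, Hmgb3 is an X-linked gene of progenitor cells, and Hmgb1 also acts outside cells as a danger signal through Ager and Toll-like receptors.

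RNA came from pancreatic tumour cells of C57BL/6 mice aged 11 weeks, and 6 samples were each hybridised to 1 Affymetrix array. The 3 wt samples and the 3 Msi1 -/- samples, called Msi1 KO, all carried engineered tumour alleles, so that wt refers to Msi1 alone. These alleles include p53f/f and ptf1a-Cre, and not every tumour allele in the labels is named here. The ptf1a-Cre allele drives recombination in the pancreatic epithelial lineage, and the sources used here do not give how Msi1 was lost. The sample descriptions carry a different mouse number for each sample of a group, but no label says how the tumours were dissociated or whether mice were pooled, so a p-value here reflects only how far these samples vary, which may be technical.

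Some features of the arrays touch every result. Median intensity lay between 159.2 and 164.3 in the 6 arrays, and their log2 values correlated at 0.975 to 0.993. The array background, set at the 95th percentile of 83 sensory receptor probe sets (olfactory, vomeronasal and taste), lay between 162 and 166 in 5 arrays and at 189 in Msi1 KO replicate 1. Control probe sets at both ends of Gapdh gave this array the lowest ratio of 3' to 5' signal, at 1.38 against 1.55 to 1.86 elsewhere. The ratio rises as RNA degrades, so it is not a sign of poor RNA in this array. The same array nevertheless had the lowest weight, 0.34, in limma's estimate of array quality. Wild-type replicate 3 differed in sex-linked transcripts, with Xist at 6226 against 131 to 387 and the Y-linked gene Eif2s3y at 88.2 against 716 to 944. Msi1 itself was dim, at 144, 150.4 and 257 in wt and 141, 169 and 127 in Msi1 KO arrays, a log2 difference of -0.29 ± 0.22 (SE). Its groups overlapped, and its probe sets do not check the genotype labels because the deleted part is not known here. The related gene Msi2 differed by -0.07 ± 0.15 (SE).

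Markers of ductal and tumour epithelium were present, with those of other cells beside them. The list does not tell tumour cells from other ductal epithelium. All 12 ductal and tumour epithelial markers, such as the keratins Krt19 and Krt8 and the adhesion gene Epcam, lay above background in every array. So did all 11 fibroblast markers, all 10 macrophage markers, all 7 endothelial markers and 9 of 11 acinar markers. In such bulk RNA, fewer cells of a type and less RNA per cell cannot be told apart.

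The question for these genes was whether their transcripts differ between tumour cells with and without Msi1. Hmgb2 was higher in every Msi1 KO array, Brd3 was slightly lower in every Msi1 KO array, and Hmga2 was lower in 2 of the 3 but at the wt level in the other. Brd2 and Hmgb3 overlapped between the genotypes. None of the 5 genes passed an adjusted p of 0.05 (limma, Benjamini-Hochberg over 45037 probe sets; adjusted p = 0.9997 for each), as 0.0% of all 18193 genes did. At an unadjusted p under 0.05 there was 1 of the 5, Hmgb2, beside 3.45% of all genes (1.6% higher and 1.85% lower in Msi1 KO arrays). The groups did not overlap at 2 of the 5, Brd3 and Hmgb2, or 40.0%, beside 8.28% of all genes (4.0% higher, 4.28% lower). Of the 5, 4 had a lower mean in Msi1 KO arrays and 1 a higher one, beside 49.8% and 50.2% of all genes. Their median log2 difference, Msi1 KO minus wt, was -0.13, and that of all genes was 0.001. Of their 14 probe sets, 10 had a lower and 4 a higher mean, beside 48.6% and 51.4% of all probe sets. The groups did not overlap at 4 of the 14, 2 higher and 2 lower, beside 7.79% of all probe sets (4.08% higher, 3.71% lower). An unadjusted p under 0.05 was reached by 2 of the 14, 1 in each direction, beside 3.01% (1.46% higher, 1.55% lower).

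**Figure D1:**
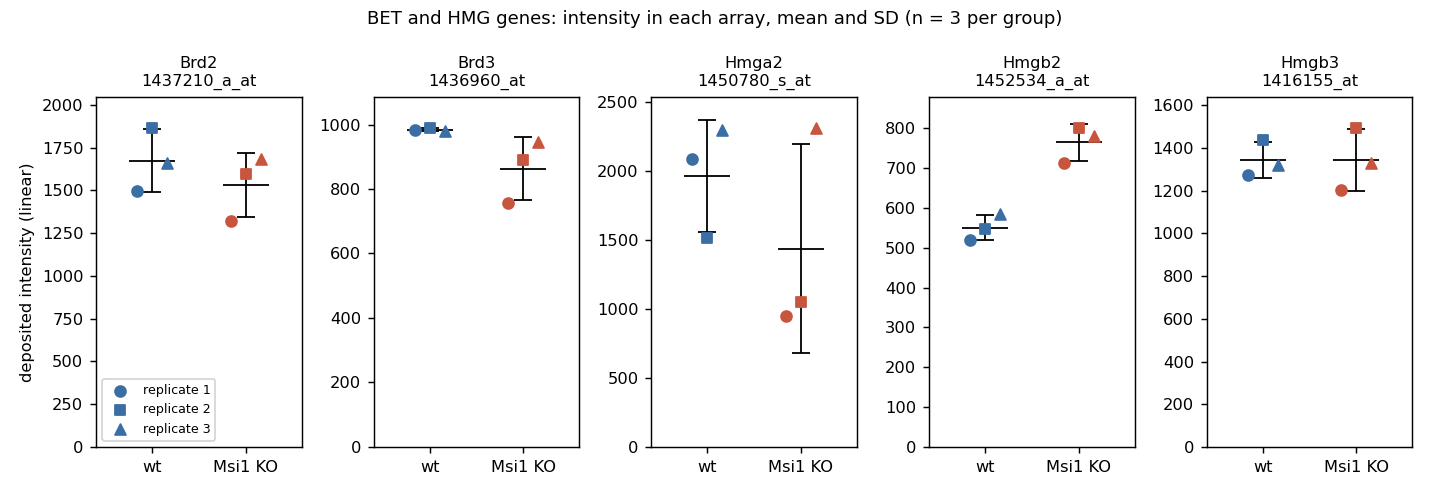
Deposited linear intensity (vertical axis, from 0) of Brd2, Brd3, Hmga2, Hmgb2 and Hmgb3 at their brightest probe sets, in 3 wt (blue) and 3 Msi1 KO (red) arrays, with symbols for the replicate number and black bars for the mean and SD. Hmgb2 separates at 521 to 584 against 713 to 800, and Hmga2 in Msi1 KO replicate 3 sits at 2310 with the wt arrays.

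Of the BET genes, Brd3 encodes a bromodomain protein that reads acetylated histones and acetylated transcription factors. At 1436960_at it read 984, 988 and 979 in the wt arrays and 756, 890.2 and 945 in the Msi1 KO arrays. All 3 Msi1 KO values lay below all 3 wt values, but the highest of them came close. The means were 984 ± 4.55 and 864 ± 97.1 (SD, n = 3), a log2 difference of -0.19 ± 0.12 (SE; 95% confidence interval -0.47 to 0.08; unadjusted p = 0.137 in limma). An exact two-sided permutation test over the arrays gave p = 0.1, the smallest that 3 against 3 arrays allow. The wt arrays were much closer together than the Msi1 KO arrays, and the lowest value was that of Msi1 KO replicate 1. Without this array the log2 difference was -0.10.

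The other 3 Brd3 probe sets had the same direction. At 1460328_at the values were 413, 449.6 and 403 in wt and 318, 375 and 367 in Msi1 KO arrays, again without overlap, a log2 difference of -0.26 ± 0.10 (SE; unadjusted p = 0.0387, adjusted p = 0.9997 in limma). The Brd3 probe set 1423199_at differed by -0.17 ± 0.10 and 1450902_at by -0.20 ± 0.12 (SE), each with overlap between the groups. Across the 6 arrays the 4 Brd3 probe sets correlated with each other at 0.66 to 0.94; they share the same RNA, and the annotation gives 3 of them 1 source accession.

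Brd2, the closest relative of Brd3 on this list, is widely expressed and also binds acetylated chromatin. It read 1497, 1862 and 1663 in wt arrays and 1320, 1594 and 1683 in Msi1 KO arrays at 1437210_a_at. The ranges overlapped over most of their length, and Msi1 KO replicate 1 was again the lowest. The log2 difference was -0.13 ± 0.14 (SE; 95% confidence interval -0.45 to 0.19; unadjusted p = 0.374 in limma). It was -0.03 without Msi1 KO replicate 1, -0.05 without wt replicate 2, -0.20 without Msi1 KO replicate 3 and -0.21 without wt replicate 1. The other Brd2 probe set, 1423502_at, read 1080, 1150 and 1120 in wt and 1126, 1006 and 1255 in Msi1 KO arrays and differed by 0.01 ± 0.12 (SE). The Brd2 probe sets correlated with each other at only 0.27 over the 6 arrays.

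Signs of RNA quality and tissue mixture moved with the BET genes. The 3' to 5' ratio of the Actb control probe sets, like that of Gapdh, rises as RNA degrades. Over the 6 arrays it correlated with Brd3 at 0.94 and with Brd2 at 0.94, and the Gapdh ratio at 0.77 and 0.97. The Actb and Gapdh ratios also correlated with Hmgb3 at 0.57 and 0.71 and with Hmga2 at 0.69 and 0.37. With Hmgb2 they correlated at -0.41 and -0.40. The Actb ratio was 1.66 ± 0.0476 in wt and 1.56 ± 0.112 in Msi1 KO arrays (SD, n = 3). The score of the acinar markers, their mean log2 value centred on the 6 arrays, correlated with Brd3 at 0.92 and with Brd2 at 0.80. The score of the ductal and tumour epithelial markers correlated with Brd3 at 0.80 and with Brd2 at 0.74. The part of these in the result was not tested. They rest on the same 6 arrays and normalization, so they are descriptions.

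Of 39 measured bromodomain readers, acetyltransferases and P-TEFb partners, 12 had higher and 27 lower means in Msi1 KO arrays, beside 50.2% and 49.8% of all genes, with a median log2 difference of -0.09. The list also names E2f1 and E2f2, which belong to none of these classes. Without overlap between the groups were 2 higher and 3 lower genes of the list, beside 4.0% and 4.28% of all genes. At an unadjusted p under 0.05 there was 1 in each direction, beside 1.6% higher and 1.85% lower of all genes, and none passed adjusted. The higher was Atad2, a bromodomain ATPase of replicating cells, at 283, 384 and 385 in wt and 419.7, 488 and 491 in Msi1 KO arrays (0.42 ± 0.15 on the log2 scale, SE). The lower was Phip, a bromodomain protein first found through the insulin pathway, at -0.32 ± 0.14 (SE). Baz2b, a chromatin remodelling subunit, and Nsd3, a histone methyltransferase that binds BET proteins, differed by -0.23 ± 0.10 and 0.22 ± 0.12 (SE). The P-TEFb genes themselves overlapped between the groups: the kinase gene Cdk9 differed by -0.09 ± 0.10, its cyclin Ccnt1 by -0.11 ± 0.16 and the inhibitor Hexim1 by -0.12 ± 0.11 (SE).

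Hmga2 had the largest difference of the 5 genes and also the largest spread. At 1450780_s_at it read 2086, 1512 and 2301 in the wt arrays and 948, 1052 and 2310 in the Msi1 KO arrays. Msi1 KO replicates 1 and 2 lay below every wt array, at 0.49 and 0.543 of the wt mean on the log scale, whereas Msi1 KO replicate 3 lay at 1.19 of it, above every wt array. The means were 1966 ± 408 and 1436 ± 758 (SD, n = 3), a log2 difference of -0.55 ± 0.34 (SE; 95% confidence interval -1.34 to 0.24; unadjusted p = 0.145 in limma; exact two-sided permutation p = 0.4). The interval holds 0, and the difference is smaller than the spread within the Msi1 KO group. Of all genes, 1.12% had a larger difference in either direction.

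Single arrays set the size of the Hmga2 difference. Without Msi1 KO replicate 3 it was -0.95 (unadjusted p = 0.00253, adjusted p = 0.9997 in limma; adjusted p over its alternatives at least 0.8975), and without Msi1 KO replicate 1 it was -0.31. It was -0.39 without Msi1 KO replicate 2 and -0.30 with array weights, and it stayed negative in all of these fits.

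Another Hmga2 probe set, 1422851_at, put the arrays in the same order as the brightest. Its values were 1424, 1107 and 1639 in wt and 624, 688 and 1656 in Msi1 KO arrays, a log2 difference of -0.62 ± 0.36 (SE). The values at 1450781_at were 629, 491 and 668 against 276, 339 and 633, with Msi1 KO replicate 3 below wt replicate 3 there, a log2 difference of -0.60 ± 0.29 (SE). In both, Msi1 KO replicates 1 and 2 were the lowest arrays and Msi1 KO replicate 3 lay within or just above the wt range. The annotation gives these and the brightest 1 source accession, and they correlated at 0.99 to 1.0 over the arrays. The remaining one, 1446196_at, was above background in 1 of 6 arrays and differed by -0.03 ± 0.23 (SE).

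**Figure D2:**
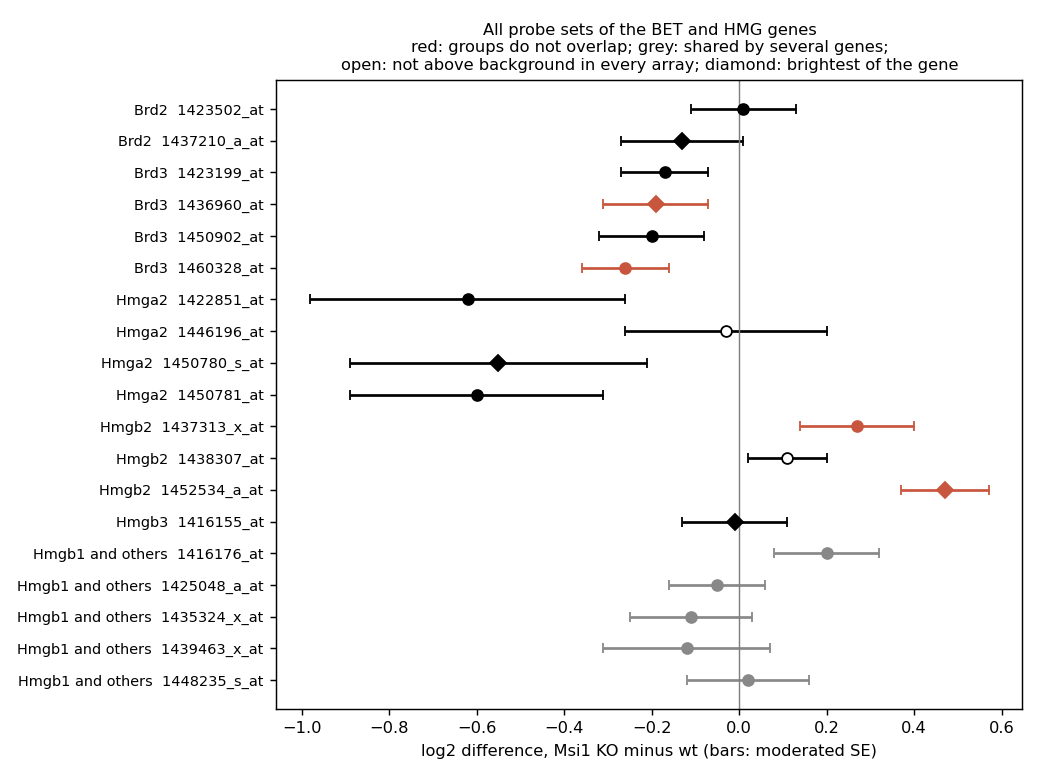
Log2 difference, Msi1 KO minus wt (horizontal axis), of all 14 probe sets of the BET and HMG genes and of the 5 that Hmgb1 shares with other genes; bars are limma's moderated SE. All 4 Brd3 probe sets lie below 0 and all 3 Hmgb2 probe sets above it, and the 3 bright Hmga2 probe sets lie between -0.62 and -0.55 with long bars.

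The arrays low in Hmga2 were also the arrays low in acinar transcripts. The acinar score was -1.29 and -0.81 in Msi1 KO replicates 1 and 2, 0.27 in Msi1 KO replicate 3 and 0.39 to 0.98 in the wt arrays. Of 11 measured acinar markers 10 had lower means in Msi1 KO arrays, beside 49.8% of all genes. An unadjusted p under 0.05 was reached by 8 of these, beside 1.85% of all genes, and none passed adjusted. Their summed intensity ran from 41030 to 64310 in wt and from 13970 to 39650 in Msi1 KO arrays. For example, Cpa1, a carboxypeptidase of acinar granules, read 3182, 6008 and 3516 in wt and 883, 1080 and 3198 in Msi1 KO arrays. Hmga2 correlated with the acinar score at 0.78 and with the score of 7 neutrophil markers at -0.92 over the 6 arrays. Summed neutrophil intensity was 5934 to 7500 in wt and 4721 to 14790 in Msi1 KO arrays. The highest sum, in Msi1 KO replicate 2, was mostly Ltf, at 9504 there against 1035 to 1506 in the other arrays. In that array S100a8 and S100a9 lay within the wt range, Mmp8 below it, and Csf3r, Cxcr2 and Camp above it. The neutrophil score of this array therefore rests largely on 1 gene. The epithelial score correlated with Hmga2 at 0.70, with summed intensities of 69370 to 79820 in wt and 56990 to 86750 in Msi1 KO arrays. The part of these cell types in the Hmga2 values was not tested.

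The genes around let-7, which restrains Hmga2, showed small differences. Of 13 measured genes 5 had higher and 8 lower means in Msi1 KO arrays, beside 50.2% and 49.8% of all genes. The median log2 difference was -0.04, and 0 had an unadjusted p under 0.05, beside 3.45% of all genes. Lin28b, which blocks let-7 maturation, was above background in 0 of 6 arrays. Igf2bp3, an RNA-binding protein gene of the same oncofetal group as Hmga2, read 305, 303 and 289 in wt and 302, 313 and 349 in Msi1 KO arrays (0.10 ± 0.09, SE). Dgcr8 of the microRNA processing complex differed by -0.22 ± 0.11, and the uridylyl transferase genes Tut4 and Tut7 by -0.25 ± 0.16 and -0.15 ± 0.10 (SE). Ago1, which holds microRNAs on their targets, differed by -0.14 ± 0.10 (SE). Tut7 and Ago1 were lower without overlap between the groups, 2 of the 13 genes, beside 4.28% of all genes. None was higher without overlap, beside 4.0% of all genes. The microRNAs themselves were not analysed here.

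Hmgb2 had the clearest separation. At 1452534_a_at it read 521, 548 and 584 in the wt arrays and 713, 800 and 782 in the Msi1 KO arrays. Every Msi1 KO array lay above every wt array, with a gap wider than the range within either group. The means were 551 ± 31.7 and 765 ± 45.8 (SD, n = 3), a ratio of 1.39 and a log2 difference of 0.47 ± 0.10 (SE; 95% confidence interval 0.23 to 0.71). The unadjusted p was 0.00218, but the adjusted p over all probe sets was 0.9997 (limma), and the exact two-sided permutation test gave p = 0.1, its smallest value. Of all genes, 1.62% had a larger difference in either direction. With each array left out in turn the difference ran from 0.43 to 0.52.

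Another bright Hmgb2 probe set, 1437313_x_at, had a smaller difference of the same direction. It read 541, 613.5 and 614 in wt and 620.1, 796 and 724 in Msi1 KO arrays, a log2 difference of 0.27 ± 0.13 (SE; unadjusted p = 0.0683 in limma). The groups did not overlap there, but Msi1 KO replicate 1 was only just above the highest wt array. The third, 1438307_at, was below background in all 6 arrays and differed by 0.11 ± 0.09 (SE). Averaged over its 3 probe sets, Hmgb2 differed by 0.29 (unadjusted p = 0.0217 in limma).

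**Figure D3:**
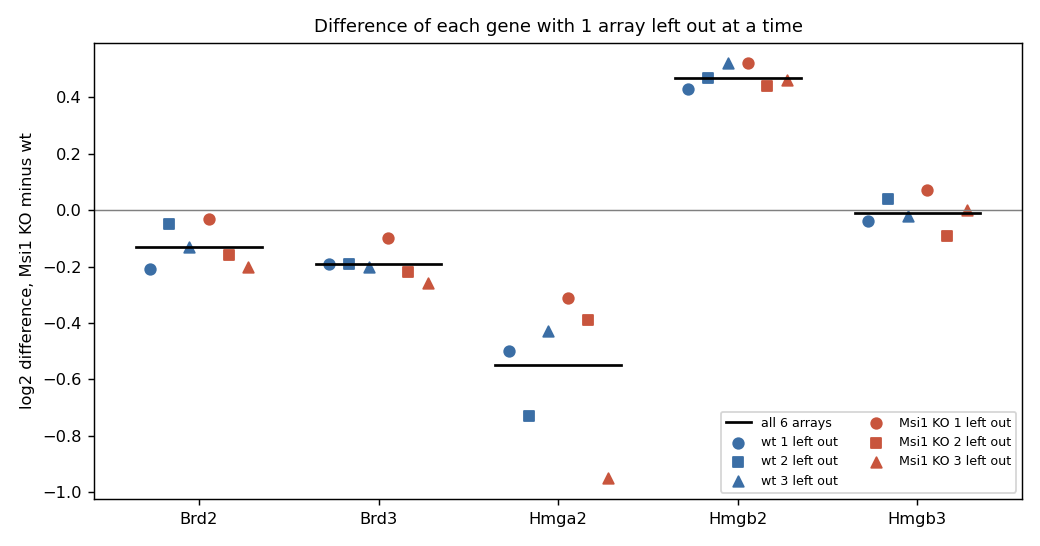
Log2 difference, Msi1 KO minus wt (vertical axis), of each gene with all 6 arrays (black line) and with 1 array left out (symbols; blue for a wt and red for a Msi1 KO array). Hmgb2 stays between 0.43 and 0.52, whereas Hmga2 runs from -0.95 without Msi1 KO replicate 3 to -0.31 without Msi1 KO replicate 1.

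Hmgb2 and the division genes were high and low in much the same arrays. The score of 22 measured G2 and M phase genes was -0.71, -0.13 and -0.04 in wt and 0.01, 0.39 and 0.48 in Msi1 KO arrays, and Hmgb2 correlated with it at 0.89 over the 6 arrays. All 22 had higher means in Msi1 KO arrays, beside 50.2% of all genes, with a median log2 difference of 0.56. An unadjusted p under 0.05 was reached by 19, beside 1.6% of all genes, and an adjusted one by 0. The groups did not overlap at 11, all higher, beside 4.0% of all genes, and 16 were above background in every array. Top2a, the topoisomerase of dividing cells, read 361, 682 and 719 in wt and 682, 1075 and 1084 in Msi1 KO arrays. Mki67, the proliferation antigen, read 284, 683 and 693 in wt and 589.6, 906 and 985 in Msi1 KO arrays. Both overlapped between the groups: wt replicate 1 was far below the other wt arrays, and Msi1 KO replicate 1 lay within the wt range. Ccnb2, Kif20a, Ube2c and Cenpa, a mitotic cyclin, a kinesin, a ubiquitin-conjugating enzyme and the centromeric histone, differed by 0.63 ± 0.14, 0.57 ± 0.14, 1.03 ± 0.29 and 0.64 ± 0.18 (SE).

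Of 20 measured S phase genes, 19 had higher means in Msi1 KO arrays, beside 50.2% of all genes, and the median log2 difference was 0.21. An unadjusted p under 0.05 was reached by 1, a higher gene, beside 1.6% of all genes. Tk1, thymidine kinase, differed by 0.44 ± 0.19, Prim1 by 0.40 ± 0.18, Rfc4 by 0.22 ± 0.10 and Rrm2 by 0.71 ± 0.35 (SE). Pcna, the sliding clamp, read 2246, 2414 and 2677 in wt and 2737, 2699 and 2942 in Msi1 KO arrays (0.19 ± 0.10, SE). Hmgb2 correlated with the S phase score at 0.79 and with the score of 10 T and NK cell markers at 0.77. Its correlation with the acinar score was -0.67. Of the 11 acinar markers 10 had lower means in Msi1 KO arrays, beside 49.8% of all genes, with a median log2 difference of -1.35. The T and NK markers summed to 1487 to 1836 in wt and 1850 to 2424 in Msi1 KO arrays. Only 2 of the 10 were above background in every array. An unadjusted p under 0.05 was reached by 3 of the 10, all higher, beside 1.6% of all genes. The part of these cells in the Hmgb2 values was not tested.

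**Figure D4:**
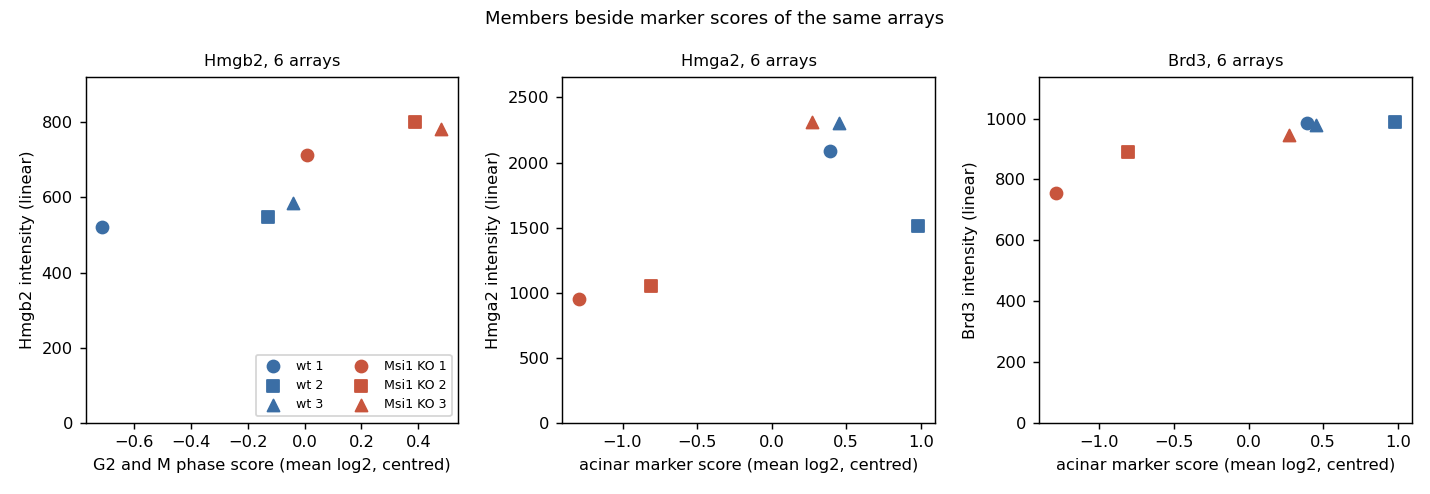
Linear intensity (vertical axes) of Hmgb2 against the G2 and M phase score, and of Hmga2 and Brd3 against the acinar marker score (horizontal axes, mean log2 centred on the 6 arrays), 1 point per array with wt in blue and Msi1 KO in red. Msi1 KO replicates 1 and 2 are low in Hmga2 at acinar scores of -1.29 and -0.81, and Hmgb2 spans 521 to 800.

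Over the 6 arrays Hmgb2 correlated with the G2 and M phase score at 0.89, its paralog Hmgb3 at 0.40 and Hmga2 at -0.22, and the 250 bases before their starts were compared (RefSeq, GRCm38.p6). Promoters of division genes are known for CCAAT boxes, bound by NF-Y, and for the CHR element, bound by DREAM and MuvB complexes. Capitals mark every match to the box CCAAT, to the CHR as TTTGAA or as TTTAAA, or to the GC box GGGCGG, on either strand. Hmgb2 is at chr8:57511593-57511842 on the plus strand, Hmgb3 at chrX:71555667-71555916 on the plus strand, and Hmga2 at chr10:120476470-120476719 on the minus strand.
Hmgb2: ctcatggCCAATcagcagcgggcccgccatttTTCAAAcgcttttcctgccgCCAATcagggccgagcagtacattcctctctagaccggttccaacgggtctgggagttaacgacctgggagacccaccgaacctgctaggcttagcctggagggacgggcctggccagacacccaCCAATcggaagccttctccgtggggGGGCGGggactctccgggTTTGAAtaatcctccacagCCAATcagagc
Hmgb3: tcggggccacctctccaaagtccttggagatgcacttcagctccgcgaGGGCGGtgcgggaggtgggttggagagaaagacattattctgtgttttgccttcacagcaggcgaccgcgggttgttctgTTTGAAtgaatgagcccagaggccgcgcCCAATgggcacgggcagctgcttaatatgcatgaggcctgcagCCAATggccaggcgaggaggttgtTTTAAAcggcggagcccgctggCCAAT
Hmga2: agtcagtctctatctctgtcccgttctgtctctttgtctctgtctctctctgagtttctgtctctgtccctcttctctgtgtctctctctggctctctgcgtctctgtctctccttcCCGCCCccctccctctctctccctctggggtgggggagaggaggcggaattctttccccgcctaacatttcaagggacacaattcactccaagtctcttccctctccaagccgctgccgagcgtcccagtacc

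The Hmgb2 stretch holds 4 CCAAT matches, which begin 243, 198, 73 and 11 bases before the start. It also holds TTTGAA 30 bases before the start, TTTGAA on the other strand at 218 and GGGCGG at 48. The Hmgb3 stretch holds 3 CCAAT matches, at 94, 51 and 5 bases, with TTTGAA at 122, TTTAAA at 27 and GGGCGG at 202. The Hmga2 stretch holds GGGCGG on the other strand and no other match. No matches overlapped one another in these 3 stretches. Brd3 held only GGGCGG, at 146 bases before its start. A promoter of Hmgb1 also held 3 CCAAT matches, which begin 86, 42 and 11 bases before its start, without TTTGAA.

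Among 32851 RefSeq promoters of this length, 33.8% held CCAAT, 16% TTTGAA, 12.1% TTTAAA and 32.7% GGGCGG. At least 3 CCAAT matches were held by 2.79%, and at least 3 together with TTTGAA by 0.381%, Hmgb2 and Hmgb3 among them. These combinations follow what Hmgb2 and Hmgb3 hold, so the shares do not test whether these genes are unusual. Of the 19 G2 and M phase genes with a RefSeq promoter, 17 held CCAAT, 7 TTTGAA, and 5 at least 3 CCAAT with TTTGAA. These counts are by gene, whereas the shares above are by promoter. The 32851 promoters belong to 27025 genes, so a gene can have several, and the counts cannot be set directly beside the shares. The E2F forms TTTCCCGC and TTTGGCGC (0.895% and 0.417% of promoters), the E box CACGTG (6.02%) and the TATA box TATAAA (12.4%) had no match in these 3 stretches. The matches are descriptions of letters, and their part in the Hmgb2 or Hmgb3 values was not tested.

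Hmgb3 read 1272, 1438 and 1322 in wt arrays and 1202, 1492 and 1332 in Msi1 KO arrays at 1416155_at. The Msi1 KO arrays spanned the whole wt range. The log2 difference was -0.01 ± 0.12 (SE; 95% confidence interval -0.28 to 0.27; unadjusted p = 0.961 in limma), so differences beyond these bounds are outside the interval. Hmgb3 is X-linked, and wt replicate 3, the array with high Xist, lay between the other wt arrays. Its log2 difference from the wt mean was -0.02. Over the 6 arrays Hmgb3 correlated with the B and plasma cell score at 0.87 and with the fibroblast score at -0.79. The part of these cells in the Hmgb3 values was not tested.

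The probe sets that Hmgb1 shares with Gm21596 were bright and did not point in 1 direction. The brightest, 1425048_a_at, read 3922, 3924 and 4165 in wt and 3331, 4155 and 4157 in Msi1 KO arrays, a log2 difference of -0.05 ± 0.11 (SE). At 1416176_at the values were 2017, 2160 and 1930 in wt and 2226, 2700 and 2122 in Msi1 KO arrays, a log2 difference of 0.20 ± 0.12 (SE; unadjusted p = 0.139 in limma). The groups overlapped at both. The other 3 differed by -0.12 to 0.02. How much of this signal comes from each gene was not tested.

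Of 15 measured receptors and partners through which extracellular Hmgb1 acts, 10 had lower and 5 higher means in Msi1 KO arrays, beside 49.8% and 50.2% of all genes, with a median log2 difference of -0.09. At an unadjusted p under 0.05 there were 3, all lower, beside 1.85% of all genes, and none passed adjusted. Trem1, an amplifying receptor of myeloid cells, read 398, 534 and 578 in wt and 399, 279 and 369 in Msi1 KO arrays (-0.53 ± 0.18, SE). Tlr4, the endotoxin receptor, read 567, 455 and 452 in wt and 446, 308 and 372 in Msi1 KO arrays (-0.40 ± 0.16, SE), without overlap. Ager, the receptor for glycated proteins, was near background and differed by -0.30 ± 0.12 (SE). Siglecg, an inhibitory lectin, differed by 0.23 ± 0.13 (SE). Macrophage markers, whose cells carry several of these receptors, summed to 37450 to 45330 in wt and 31900 to 54150 in Msi1 KO arrays, and their part was not tested.

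Other chromatin architecture genes gave a mixed picture. Of 19 further high mobility group and nucleosome-binding genes, 16 had lower and 3 higher means, beside 49.8% and 50.2% of all genes. Without overlap between the groups were 4 lower and 1 higher, beside 4.28% and 4.0% of all genes. Tox3, Hmg20b and Hmgn3 were among the 4 lower. The median log2 difference was -0.07, and 1 lower gene had an unadjusted p under 0.05, beside 1.85% of all genes. That gene was Tox3, an HMG-box factor of epithelia, at 713, 441 and 409 in wt and 355, 338 and 342 in Msi1 KO arrays (-0.55 ± 0.20, SE). Hmgn1, a nucleosome-binding protein, read 6048, 5454 and 5610 in wt and 5315, 5850 and 5719 in Msi1 KO arrays (-0.02 ± 0.08, SE). Hmg20b, Tox and Hmgn3 differed by -0.20 ± 0.10, -0.24 ± 0.13 and -0.17 ± 0.10 (SE).

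Of 20 linker histone and histone chaperone genes, 14 had higher and 6 lower means, beside 50.2% and 49.8% of all genes. The median log2 difference was 0.04, and 2, both higher, had an unadjusted p under 0.05, beside 1.6% of all genes. Nap1l1, a chaperone that loads H2A and H2B, read 1382, 1728 and 1704 in wt and 2073, 2448 and 2214 in Msi1 KO arrays (0.49 ± 0.13, SE). Anp32e, which removes the variant H2A.Z, differed by 0.39 ± 0.15 (SE). Asf1b and Hat1, a chaperone and an acetyltransferase of new histones, differed by 0.17 ± 0.13 and 0.12 ± 0.11 (SE). Neither Nap1l1 nor Anp32e overlapped between the groups, and the score of this list correlated with Hmgb2 at 0.80 over the 6 arrays.

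The genes whose array pattern was most like each member were found among 9612 genes of mean log2 value 8 or more, by Pearson's r over the 6 arrays. With so few arrays high values are common. For Hmgb2 they were Itfg1 (0.994) and Pdf (0.99), for Hmga2 Aak1 (0.997) and Zzz3 (0.995), and for Brd3 Zfp618 (0.998) and Ago4 (0.992). For Brd2 they were Pknox1 (0.996) and Kdm2a (0.991), and for Hmgb3 Pomk (0.991) and Reg3g (0.987). Zfp618 read 595, 584 and 586 in wt and 332, 480 and 527 in Msi1 KO arrays, a log2 difference of -0.43 ± 0.17 (SE). Between the members, Brd3 correlated with Brd2 at 0.79 and with Hmga2 at 0.79, Brd2 with Hmgb3 at 0.73, and Hmgb2 with the others at -0.55 to 0.16.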

How the data were processed

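The authors deposited linear intensity, 1 value per probe set and array, in a single table. GCRMA, which corrects background by probe sequence, is named in the submitters' processing notes, without a version. Biotin-labelled cRNA was made from 6 ug of RNA, per the labels' protocols. Whether values were rescaled later is not stated; compression near background would shrink differences of dim probe sets.

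After 64 control probe sets were left out, limma 3.58.1 (R 4.3.3) was run on log2(intensity + 1) (genotype only, eBayes with trend), with Benjamini-Hochberg adjustment at 0.05. The fit was checked on simulated data. Intervals are limma's. SD is over arrays and SE is moderated. Of the tested probe sets 34945 had 1 gene symbol, 932 several and 9160 none here; 34754 entries matched RefSeq (GRCm38.p6). The number of arrays limits the precision. The members and lists were chosen with earlier results of these data known.

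Named genes were all members with all their probe sets, the 4 genes of smallest p in each pathway list with a set of partners, the 2 genes most like each member, Msi1 and Msi2. Cpa1, the 3 epithelial markers and the sex-linked genes were chosen after their values were seen. Marker lists without a result above were islets, adipocytes and mesothelium, with median log2 differences of -0.12, -0.36 and -0.10. The B and plasma cell list had a median log2 difference of 0.32. Alternatives were filters at a mean log2 of 7 and 8, a pseudocount of 16, normalization, prior, array weights, the replicate block, arrays left out and the choice of probe set.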

Additional observations from a re-analysis of the deposited data

How the results depend on the processing

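No member passed an adjusted p of 0.05 under any of the alternatives run. Brd3, Hmga2 and Hmgb2 kept their direction in all 17 alternatives each. Hmgb3 became 0.01 with array weights and ran from -0.09 to 0.07 with single arrays left out. Brd2 became 0.01 with the probe set of smallest SE, which also lowered Hmgb2 to 0.11 and Hmga2 to -0.03 at probe sets near or below background, and left 0 genes without overlap and 0 with an unadjusted p under 0.05. Genes with a higher mean numbered 2 with cyclic loess, array weights or the probe set of smallest SE, and 1 to 2 with single arrays left out. With single arrays left out, 2 to 3 genes did not overlap and 1 to 2 had an unadjusted p under 0.05.

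Over all probe sets, 0 passed the adjusted threshold, also at 0.10, and 1355 had an unadjusted p under 0.05. The latter was 546 with the filter at 8, 2153 with array weights and 886 to 2723 with single arrays left out. Without Msi1 KO replicate 1 there were 2723 and 1 passed the adjusted threshold, Ighm (named after its value was seen), and without wt replicate 1 there were 886. With the replicate block there were 2120, and Hmga2 had an unadjusted p of 0.0549 (limma). Deviations of same-numbered arrays correlated at 0.17, -0.091 and 0.282, and those of different-numbered arrays at -0.257 to 0.058. These few values do not settle whether the numbers pair the arrays. The main fit left the numbers out because no label states a pairing.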
